A study of Capra hircus with 4 samples.

Results

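Cytosolic ribosomal proteins and the factors that drive translation were compared between phases of hair growth in stem cells of the secondary follicle of the cashmere goat (Capra hircus), grown in culture. The members were all rows whose gene symbol has the form of a cytosolic ribosomal protein (RPL, RPLP, RPS or RPSA, without the ribosomal S6 kinases) or of a eukaryotic initiation or elongation factor (EIF1 to EIF6, EEF1, EEF2). The symbol alone decided membership, which gave 141 of 20326 genes. Of these, 80 were ribosomal protein genes and 61 carried the name of a translation factor. The latter also include kinases, binding proteins and methyltransferases that act on the factors.

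The cells came from dorsal skin and were grown in culture before RNA was extracted. The early anagen group was sampled in April and the mid anagen group in October, each with 1 library from a female and 1 from a male animal. Age, breed and passage number are not given in the labels. Biological replicates is the submitters' term for the libraries of a phase, and replicate 1 is the female in both phases, so sex and replicate cannot be told apart. The question was how the translation machinery differed in expression between the start and the middle of follicle growth, and whether ribosomal proteins and factors differed alike.

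The cytosolic ribosome joins a small subunit, which reads the messenger RNA, to a large subunit, which forms the peptide bond. Each carries many proteins, most of which are needed in equal number. Initiation factors bring the messenger RNA cap, the initiator transfer RNA and the subunits together, and elongation factors deliver aminoacyl transfer RNA and move the ribosome along. Messenger RNAs of vertebrate ribosomal proteins and of several elongation factors begin with a terminal oligopyrimidine tract, through which mTOR and LARP1 control their translation and stability. Stem cells of the resting follicle are known for a low rate of protein synthesis, which rises as the follicle enters growth.

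The deposited values were taken as abundances per gene, normalised for length and scaled between libraries, which no header states. Levels are compared between genes on that reading. Where a pair of values is given for a phase, the female library comes before the male. The number of reads behind them is unknown. Library totals lay between 844960 and 1186966, and 12040 to 12458 genes reached a value of 1. The 13 mitochondrially encoded genes took 11.2% to 12.4% of the total in early and 14.2% to 16.6% in mid anagen. Of 11 follicle stem and basal keratinocyte markers 9 were found by symbol (KRT15 and KRT17 were not), of which 5 were lower and 3 higher in both sexes, with summed levels of 39239 and 43966 in early and 19325 and 20400 in mid anagen. All 8 fibroblast and dermal papilla markers had higher values at mid anagen in both sexes, their sum being 0.832 and 2.61 at early and 170.1 and 46.1 at mid anagen, with PDGFRA under 1 throughout. Smooth muscle markers summed to 177 and 440 at early and 207 and 490 at mid anagen. Melanocyte, immune, endothelial and adipocyte markers summed to between 0.466 and 7.23 in every library, with DCT, PTPRC and CDH5 at 0. What part these differences have in the values below was not tested. In bulk cultures, fewer cells of a type and less RNA per cell cannot be told apart.

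Ribosomal protein transcripts made up a smaller part of the RNA at mid anagen, whereas the part taken by translation factors stayed within a narrow range. The 80 ribosomal protein genes took 16.5% and 17.8% of the summed abundance at early anagen, against 12.9% and 9.21% at mid anagen. The mid values lay below both early values. For the 61 factor genes the share was 1.63% and 1.68% at early and 1.68% and 1.55% at mid anagen, so the groups overlapped. Initiation and elongation factors alone took 1.40% and 1.55% at early and 1.39% and 1.43% at mid anagen. The summed level of ribosomal proteins was 10.1 and 10.6 times that of all factor genes at early and 7.68 and 5.93 times at mid anagen. That factor sum includes the binding protein EIF4EBP1, at 1860 and 973 at early and 2235 and 577 at mid anagen. A ratio within a library does not depend on how libraries are scaled to each other. The mid male library had the lowest share and the lowest ratio of the 4.

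**Figure D1:**
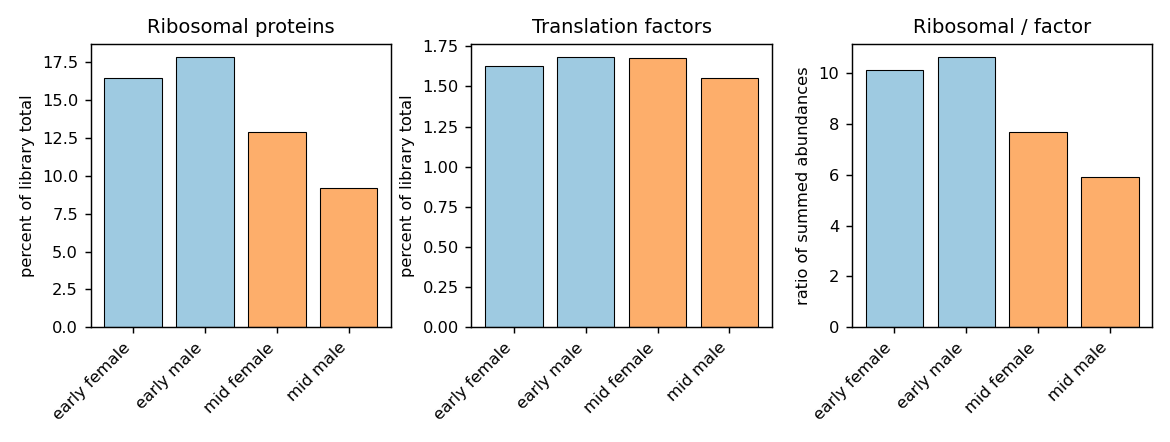
Share of the summed abundance of each library taken by ribosomal protein genes (left) and translation factor genes (middle), in percent, and the ratio of the summed values (right), with 1 bar per library, early anagen in blue and mid anagen in orange. The ribosomal share runs from 17.8% in the early male to 9.21% in the mid male library, while the factor share stays between 1.55% and 1.68%.

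Gene by gene, every ribosomal protein member tested was lower at mid anagen, though with 2 libraries per phase no single gene passed. Ribosomal genes without a symbol, given below, were not all lower. A gene was tested if its value was at least 1 in at least 2 libraries, and fold changes are mid against early on the log2(value + 1) scale. Of the 80 ribosomal protein genes 77 were tested, and in 77 of 77 both mid values lay below both early values, against 30.9% of all 12486 genes tested. In 0 of them were both mid values above both early values, against 31.5% of all genes. The median log2 fold change was -1.07 over the ribosomal proteins and 0.01 over all genes tested. limma with Benjamini-Hochberg adjustment called 0 ribosomal protein genes at an adjusted p under 0.05, with a smallest adjusted p of 0.0666. It called 0.0801% of all genes lower and 0.224% higher. Without the mid female library the same test called 24 ribosomal proteins and 5.15% of all genes. Without the mid male library it called 0 ribosomal proteins, and their median was -0.71. At an unadjusted p under 0.05, 56 of 77 ribosomal proteins were lower and 0 higher, against 14.7% and 13.2% of all genes.

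Translation factors showed a smaller and less uniform difference. Of the 61 genes 59 were tested, with a median log2 fold change of -0.24. Both mid values lay below both early values in 35 (59.3%), above them in 6 (10.2%), and the phases overlapped in 18. Among all genes tested the shares were 30.9% below and 31.5% above. limma called 0 of 59, with a smallest adjusted p of 0.0746, against 0.304% of all genes called. At an unadjusted p under 0.05, 14 (23.7%) were lower and 2 (3.39%) higher, against 14.7% and 13.2% of all genes. All 77 ribosomal proteins had a fold change below the median of the factors, and 1 factor, EEF1B2, lay below the median of the ribosomal proteins. The difference between the medians, ribosomal minus factor, was -0.82, and it was not tested, since the genes of each set come from the same 4 libraries. Without the mid male library it was -0.49. Per library, the median log2 level of ribosomal proteins exceeded that of factors by 4.27 and 4.42 at early and by 3.89 and 3.54 at mid anagen. This direction of the factors depended on scaling. With each library rescaled to a common total, the median of all genes shifted from 0.01 to 0.32 and that of the factors became 0.09, while the ribosomal median remained negative at -0.73. By role, the rescaled medians were 0.07 for initiation factors, -0.22 for elongation factors and 0.22 for kinases and regulators, so only the elongation factors stayed below 0. Both mid values then lay below both early values in 16 of 59 factors, against 12.6% of all genes, and above them in 25, against 57.5% of all genes. In that scaling limma called 1 ribosomal protein, RPL36AL, and 1 factor, EEF1B2, while it called 5.46% of all genes, so neither count was above the background.

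**Figure D2:**
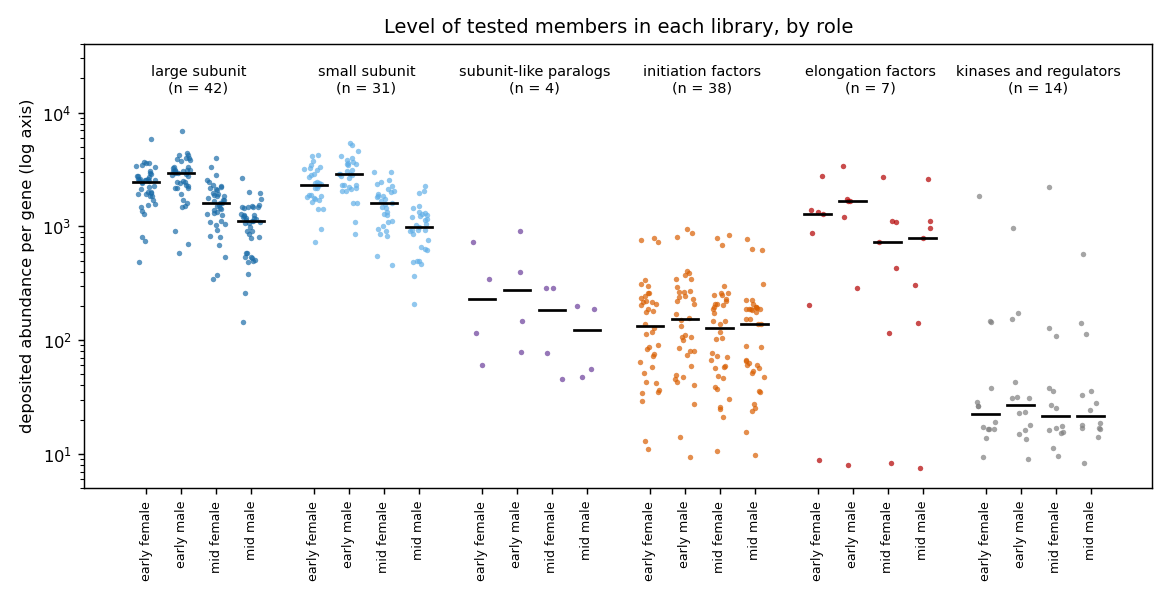
Deposited abundance (log axis) of each tested member in the 4 libraries, grouped by role, with a point per gene and a black line at the median. The large subunit medians run from 2953 in the early male to 1103 in the mid male library, whereas the initiation factor medians stay between 128 and 153.

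Among the 42 proteins of the large subunit, the median level was 2472 and 2953 at early and 1608 and 1103 at mid anagen. Their median log2 fold change was -1.06, with a range from -1.55 for RPL30 to -0.38 for RPLP0. The lateral stalk, the flexible arm on which elongation factors are recruited, showed how far subunits of 1 structure can differ. RPLP1 (GeneID 102172449), a stalk protein and the most abundant member, was at 5890 and 6823 at early and 4008 and 2020 at mid anagen (log2 fold change -1.16). RPLP2, its partner, was at 1289 and 1515 at early and 679 and 507 at mid anagen (-1.25). RPLP0, which anchors both to the ribosome, was at 3595 and 4206 at early and 3325 and 2668 at mid anagen (-0.38). In each stalk gene both mid values lay below both early values on the deposited scale, as in 30.9% of all genes. The difference was smallest for the anchor RPLP0, whose phases overlapped after rescaling to a common total (-0.04).

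The lowest fold changes of the large subunit were those of RPL30, RPL36A and RPL24, the last of which helps to bridge the subunits. RPL30 was at 1926 and 2469 at early and 1039 and 532 at mid anagen (-1.55). RPL36A was at 1473 and 1606 at early and 808 and 383 at mid anagen (-1.47). RPL24 was at 1860 and 2424 at early and 1096 and 586 at mid anagen (-1.40). In all 3 the mid male library had the lowest value. At the other end were RPLP0, RPL10, which joins the subunit late in its assembly, and RPL3, which lies near the peptidyl transferase centre. RPL10 was at 1701 and 1923 at early and 1252 and 1271 at mid anagen (-0.52), and RPL3 at 2120 and 2443 at early and 1610 and 1514 at mid anagen (-0.54). For RPL10 and RPL3 the mid libraries were close to each other, unlike for RPL30. Outside the rule for named genes, RPL5 and RPL11, which travel with the 5S RNA and bind MDM2 when assembly fails, had fold changes of -0.58 and -0.86.

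The 31 proteins of the small subunit had a median level of 2305 and 2885 at early and 1589 and 994 at mid anagen. Their median log2 fold change was -1.15, which differed by 0.09 from that of the large subunit. RPS28 (GeneID 102176316), which lies near the path of the messenger RNA, was at 1651 and 2132 at early and 864 and 363 at mid anagen. Its fold change was -1.74 (SE 0.45, limma adjusted p = 0.0948). RPS21 was at 954 and 1097 at early and 456 and 207 at mid anagen (-1.73), and RPS24 at 1898 and 2236 at early and 952 and 483 at mid anagen (-1.60). These were the lowest fold changes of the subunit. The most abundant small subunit genes included RPS10, at 4206 and 5161 at early and 2262 and 1434 at mid anagen, and RPS12, at 4162 and 5446 at early and 2353 and 1332 at mid anagen. Both differed by more than the subunit's median, with fold changes of -1.37 and -1.43.

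Small subunit genes with the least difference included RPSA and RPS2. RPSA (GeneID 100860903), known also as the laminin receptor, was at 2444 and 2885 at early and 2045 and 2051 at mid anagen (-0.37). RPS2 was at 3431 and 3428 at early and 3027 and 2266 at mid anagen (-0.39). For RPSA the mid libraries were close to each other, whereas for RPS2 the mid male library was the lower. After rescaling to a common total the phases no longer separated for 6 ribosomal proteins, among them RPLP0, RPS2, RPSA and RPL7L1. The other 71 of 77 kept both mid values below both early values, as 12.6% of all genes then did.

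**Figure D3:**
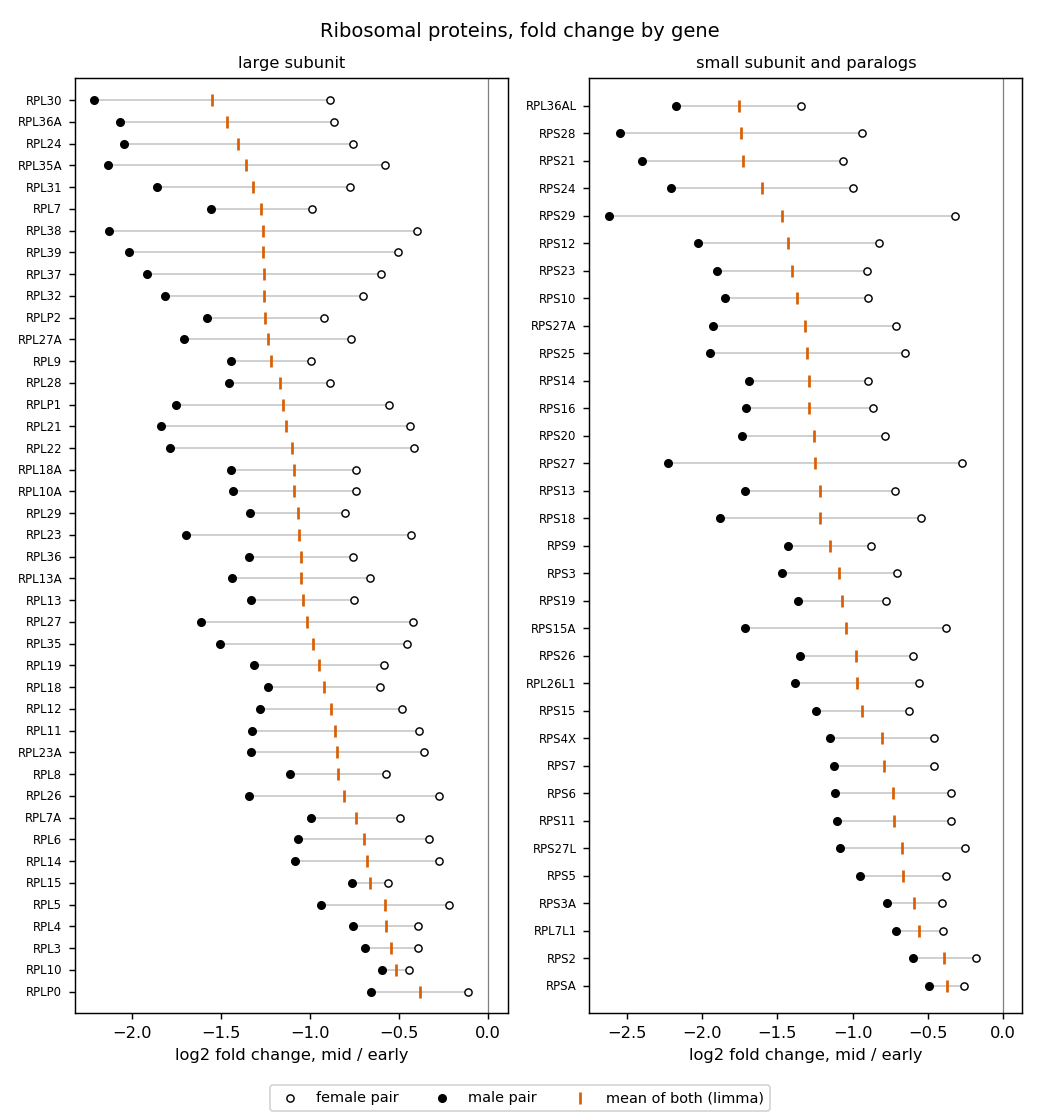
Log2 fold change, mid against early, of 75 of the 77 tested ribosomal proteins, with the female pair as an open circle, the male pair as a filled circle and their mean as an orange tick. All circles lie below 0, and in each gene drawn the male pair lies to the left of the female pair, for example at -2.55 for RPS28 and -0.49 for RPSA.

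Ribosomal proteins differed more between the phases in the male than in the female libraries. The median log2 fold change over the 77 genes was -0.57 for the female and -1.45 for the male libraries. The male fold change was the lower for 77 of 77, against 6461 of all 12486 genes tested. For the mitochondrial ribosomal proteins it was the lower in 73 of 77. In the early phase the male library had the higher value in 70 of the 73 subunit proteins, and in the mid phase it had the lower value in 71. On the deposited scale, both phases thus contributed to the wider gap in the male pair. The library total was highest in the early male (1186966) and lowest in the mid male library (844960). What part the totals have in the gap was not tested. The ratio of ribosomal proteins to factors does not depend on scaling. Early first, it was 10.6 and 5.93 in the male and 10.1 and 7.68 in the female pair. The factor sum includes EIF4EBP1, for which both female values exceeded both male values, and no ratio without it is given. With 1 library per sex and phase, the difference between the sexes was not tested. RPS29, named for its gap and outside the naming rule, was at 2160 and 2905 at early and 1736 and 471 at mid anagen. Its log2 fold change was -0.32 in the female and -2.62 in the male pair. RPS27 was at 1786 and 2315 at early and 1478 and 493 at mid anagen, with -0.27 in the female and -2.23 in the male pair.

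The balance among the ribosomal proteins also differed between libraries. Over the 73 subunit proteins the SD of log2 levels was 0.62 and 0.65 at early and 0.71 and 0.80 at mid anagen. RPL39 had the lowest level in every library, at 488 and 583 at early and 343 and 143 at mid anagen. RPLP1 had the highest level except in the mid male library, where RPLP0 did. Across these 73 genes, Pearson's r of log2 levels was 0.989 within early anagen, 0.87 within mid anagen and 0.793 to 0.941 between phases. These r values are across genes of the same libraries and are given as a description.

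The ribosomal genes are compact, and abundant short genes as a whole had lower values at mid anagen. All 141 members had a gene span in RefSeq ARS1.2. Among genes with a mean value of at least 50 that span over 2000 and up to 5000 bp, 49 ribosomal proteins had a median log2 fold change of -1.07 and 368 genes that are not members had -0.46. In that span the male pair was at -1.45 for the ribosomal proteins and -0.61 for the others, and the female pair at -0.57 and -0.34. In genes of up to 2000 bp, 10 ribosomal proteins had a median of -1.35 and 151 other genes one of -0.63. For spans over 100000 bp, the median of 170 genes that are not members was 0.17. With the trend over span removed from each library, the ribosomal median was -0.88 and the factor median -0.23. That trend was fitted on all tested genes that are not members, including those with a mean value under 50. It is therefore not the trend of the abundant genes above. Span includes introns and is not transcript length. The part of transcript length in these values was not tested.

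The subunit-like paralogs, close relatives of ribosomal proteins, were at lower levels than the proteins they resemble. RPL36AL (GeneID 102182132), nearly the same protein as RPL36A, was the most abundant, at 734 and 908 at early and 289 and 200 at mid anagen. The log2 fold change, -1.76 (SE 0.26, limma adjusted p = 0.0666), was the lowest of all members. It made up 33.3% and 36.1% of the summed level of RPL36A and RPL36AL at early and 26.4% and 34.3% at mid anagen. RPS27L, a p53-responsive relative of RPS27, was at 343 and 399 at early and 288 and 188 at mid anagen (-0.67). Its part of the pair was 16.1% and 14.7% at early and 16.3% and 27.6% at mid anagen, so only the mid male library stood apart.

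RPL26L1 was at 114 and 147 at early and 77.5 and 55.9 at mid anagen (-0.97), and its part of the RPL26 pair stayed between 4.05% and 4.995%. RPL7L1 was at 59.9 and 78.6 at early and 45.2 and 47.7 at mid anagen (-0.55), and its part of the RPL7 pair was 2.3% and 2.36% early and 3.41% and 4.14% mid. RPL3L, a muscle form, stayed under 0.2, and RPL10L, a testis form, was listed at 0 in every library. RPL22L1 was listed at 0 in 3 libraries and at 3.19 in the early male. Paralogs this close can exchange reads, so levels within a pair are uncertain.

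Several ribosomal genes of the goat carry no symbol and lie outside the naming pattern. The gene described as 60S ribosomal protein L17 (LOC100861018) was at 2870 and 3616 at early and 1942 and 1273 at mid anagen, and the gene described as L34 (LOC102186381) at 2076 and 2514 at early and 994 and 455 at mid anagen. Their fold changes were -1.03 and -1.76. A second gene described as L22-like 1 (LOC102181343) was at 264 and 279 at early and 120 and 56.8 at mid anagen, far above the member RPL22L1. A second S24 gene (LOC102175871) was at 1916 and 2296 at early and 2436 and 1053 at mid anagen, so it was higher at mid anagen in the female pair (0.35) and lower in the male pair (-1.12). Summed with RPS24, the log2 fold change was -0.17 in the female and -1.56 in the male pair, against -0.99 and -2.21 for RPS24 alone. Reads of these copies may be split between them, so the fold change of RPS24 by itself is uncertain. The copy described as 40S ribosomal protein SA (LOC102175427) was at 528 and 720 at early and 536 and 793 at mid anagen. Its log2 fold change was 0.02 in the female and 0.14 in the male pair. Summing RPSA, RPS4X and RPL21 with their own unnamed copies gave -0.27, -0.81 and -1.14, against -0.37, -0.80 and -1.14 alone.

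Over 38 tested genes the median log2 fold change of initiation factors was -0.26. Both mid values lay below both early values in 24 and above them in 4, against 30.9% and 31.5% of all genes. After rescaling to a common total they lay below in 11 and above in 16, against 12.6% and 57.5% of all genes. eIF3, the large scaffold that binds the small subunit, was represented by 12 genes with a median of -0.27. EIF3K was at 309 and 402 at early and 209 and 189 at mid anagen, the lowest fold change of the complex at -0.82 (SE 0.21, limma adjusted p = 0.0919). EIF3B, a core subunit, was at 114 and 149 at early and 70.6 and 89.3 at mid anagen (-0.71). EIF3A, the largest subunit, was at 129 and 133 at early and 117 and 139 at mid anagen, so the phases overlapped (-0.04). In 8 of the 12 eIF3 genes (66.7%) the phases did not overlap, all with mid below early, against 30.9% of all genes on this scale.

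eIF2 brings the initiator transfer RNA to the small subunit, and eIF2B recharges it with GTP. EIF2S2, the beta subunit, was at 176 and 169 at early and 228 and 189 at mid anagen (0.27), while EIF2S1, the alpha subunit whose phosphorylation slows translation, was at 58.5 and 74.4 at early and 56.8 and 53.2 at mid anagen (-0.26). EIF2S3, the gamma subunit on the X chromosome, was at 119 and 80.2 at early and 102 and 57.4 at mid anagen. A gene described as its Y-linked relative (LOC108634721) was listed at 0 in both female libraries and at 66.2 and 54.8 in the early and mid male libraries, as the sex labels have it. The sum of both was 119 and 146 at early and 102 and 112 at mid anagen. On the deposited scale all 5 eIF2B genes had both mid values below both early values, against 30.9% of all genes. Their fold changes ran from -0.58 for EIF2B1 to -0.20 for EIF2B2, before any rescaling to a common total.

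The eIF4 group recognises the cap and unwinds the leader of the messenger RNA. EIF4E, EIF4G1 and EIF4A1 were lower at mid anagen, and EIF4E3 and EIF4G3 were higher. EIF4E, the cap-binding protein, was at 91.4 and 110 at early and 76.7 and 66.2 at mid anagen (-0.49), and EIF4E3, an atypical cap binder (GeneID 102170828), was at 12.9 and 9.41 at early and 21 and 15.7 at mid anagen. The log2 fold change, 0.67 (SE 0.22, limma adjusted p = 0.133), was the highest of all members, and the phases did not overlap. EIF4E3 made up 12.4% and 7.88% of the summed level of EIF4E and EIF4E3 at early and 21.5% and 19.2% at mid anagen.

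The scaffold EIF4G1 was at 202 and 268 at early and 140 and 189 at mid anagen (-0.52). Its relative EIF4G3 was at 29.3 and 27.7 at early and 38.8 and 35 at mid anagen (0.36), and EIF4G2, which cannot bind the cap protein, at 721 and 812 at early and 793 and 779 at mid anagen (0.04). The helicase EIF4A1 was at 797 and 955 at early and 690 and 615 at mid anagen (-0.42), and EIF4A2 at 218 and 222 at early and 258 and 196 at mid anagen (0.03). EIF4A2 was thus 21.5% and 18.9% of that pair early and 27.2% and 24.1% mid, a non-overlapping but small difference. EIF4E2, a cap binder linked to repression, was at 63.7 and 79.5 at early and 57.7 and 51.1 at mid anagen (-0.38). These parts of a pair do not depend on how libraries were scaled, and their difference between the phases was not tested.

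Of the other initiation factors, EIF6 was at 298 and 392 at early and 248 and 153 at mid anagen (-0.81). EIF6 keeps the large subunit from joining too early and takes part in its assembly. EIF1, which guards start codon choice, was at 758 and 881 at early and 838 and 627 at mid anagen, and its copy EIF1B at 75.4 and 107 at early and 105 and 86.9 at mid anagen. For both the phases overlapped. EIF5B, which joins the subunits, was at 42.9 and 45.8 at early and 46.4 and 60.3 at mid anagen (0.25).

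Elongation factors lay between the ribosomal proteins and the initiation factors, their median log2 fold change being -0.56 among 7 genes tested. EEF1B2 (GeneID 102182354), the exchange factor that reloads eEF1A with GTP, was at 867 and 1218 at early and 432 and 305 at mid anagen. Its fold change of -1.50 (SE 0.29, limma adjusted p = 0.0746) was the lowest among the factors. The other subunits of the exchange complex differed less, EEF1D at 204 and 285 at early and 116 and 142 at mid anagen (-0.90), and EEF1G at 1379 and 1654 at early and 1081 and 967 at mid anagen (-0.56).

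EEF1A1, which delivers aminoacyl transfer RNA and was the most abundant factor, was at 2754 and 3419 at early and 2694 and 2579 at mid anagen (-0.22). After rescaling to a common total its fold change was 0.12. EEF2, the translocase, was at 1332 and 1726 at early and 1111 and 1118 at mid anagen (-0.44). EIF5A, named an initiation factor but known to relieve stalled elongation, was at 1286 and 1653 at early and 721 and 795 at mid anagen (-0.94), whereas EIF5A2 was at 8.78 and 7.95 at early and 8.34 and 7.51 at mid anagen (-0.07). EEF1A2, the neuron and muscle form of eEF1A, stayed under 0.15 in each library. Among the 7 tested elongation genes, only EIF5A2 had overlapping phases. The others had both mid values below both early values, against 30.9% of all genes. After rescaling to a common total, 4 of the 7 lay below and 2 above, against 12.6% and 57.5% of all genes.

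**Figure D4:**
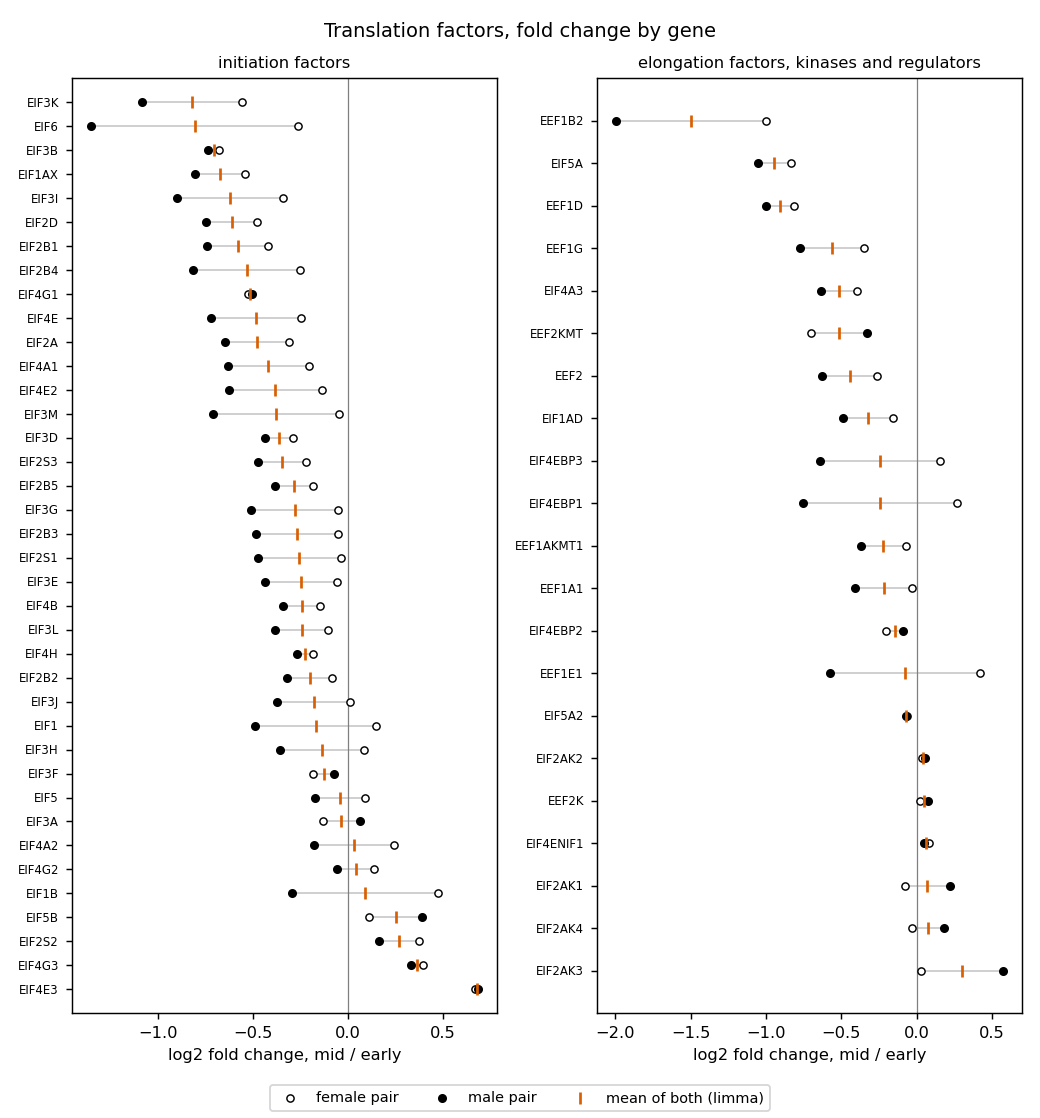
Log2 fold change, mid against early, of each tested initiation factor (left) and of the elongation factors, kinases and regulators (right), with symbols as for the ribosomal proteins. EEF1B2 lies lowest at -1.50 and EIF4E3 highest at 0.67. Of the 59 genes, 38 are lower in both pairs, 8 higher in both, and 13 have pairs on either side of 0.

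Kinases and regulators of the factors had a median log2 fold change of -0.11 over 14 genes, and the phases overlapped in 7. Both mid values lay below both early values in 5 and above them in 2, against 30.9% and 31.5% of all genes. The 4 kinases that phosphorylate eIF2 under stress had fold changes from 0.04 for EIF2AK2, the sensor of double-stranded RNA, to 0.30 for EIF2AK3, the sensor of unfolded protein. EIF2AK3 was at 9.31 and 9.09 at early and 9.49 and 14 at mid anagen, so its difference lay in the mid male library. EIF2AK1, the haem-regulated kinase, was at 38.1 and 30.9 at early and 35.95 and 36.1 at mid anagen, and EIF2AK4, the sensor of amino acid lack, at 16.7 and 14.9 at early and 16.3 and 17 at mid anagen. EEF2K, which inhibits eEF2, was at 26.4 and 31 at early and 26.8 and 32.8 at mid anagen.

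EIF4EBP1, the mTOR target that holds EIF4E inactive, differed more between the sexes than between the phases. It was at 1860 and 973 at early and 2235 and 577 at mid anagen. Both female values exceeded both male values, a difference that was not tested. EIF4EBP2 was at 149 and 152 at early and 129 and 143 at mid anagen (-0.15). EIF4A3, a helicase of the exon junction complex and no initiation factor by function, was at 145 and 175 at early and 110 and 112 at mid anagen (-0.52). EEF2KMT, a methyltransferase for eEF2, was at 18.9 and 23 at early and 11.2 and 18.1 at mid anagen (-0.51), and EIF1AD, a protein with a domain like that of EIF1AX, at 17.2 and 23.5 at early and 15.3 and 16.5 at mid anagen (-0.32). Neither of the last 2 differed by as much as the median ribosomal protein.

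**Figure D5:**
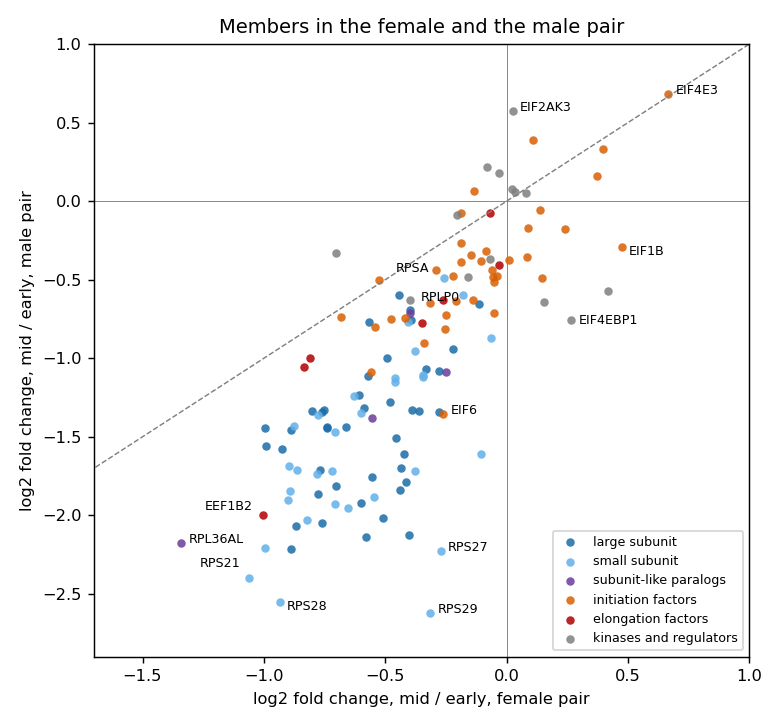
Log2 fold change of each tested member in the female pair (x axis) against the male pair (y axis), coloured by role, with a dashed line of equality. All ribosomal proteins (blue and purple) lie below the dashed line, and RPS29 is furthest from it, at -0.32 in the female and -2.62 in the male pair.

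Other parts of the pathway were taken from lists chosen by function. Their counts are on the deposited scale, without rescaling to a common total, where limma called 0.304% of all genes. Of 56 genes of ribosome biogenesis 55 were tested, with a median log2 fold change of -0.59 and 0 called by limma. At an unadjusted p under 0.05, 38 (69.1%) were lower and 0 higher, against 14.7% and 13.2% of all genes. Both mid values lay below both early values in 50 (90.9%) and above in 1, against 30.9% and 31.5% of all genes. FBL, the methyltransferase of ribosomal RNA, was at 229 and 354 at early and 92.6 and 102 at mid anagen (-1.54), and LYAR, a nucleolar protein, at 86 and 126 at early and 33.7 and 36.5 at mid anagen (-1.55). UBTF, a transcription factor of ribosomal DNA, was at 34.3 and 32.6 at early and 37.5 and 38.7 at mid anagen (0.18). RIOK2, a kinase of small subunit assembly, was at 20.6 and 23.6 at early and 28.5 and 20.9 at mid anagen (0.14).

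Release, recycling and nascent chain factors had a median of -0.15 over 22 tested genes, and 0 were called. Without overlap, 10 (45.5%) lay below and 2 (9.09%) above, against 30.9% and 31.5% of all genes. NACA and BTF3, which together receive the nascent chain at the ribosome, were lowest at -0.75 and -0.49. PAIP1, a partner of the poly(A)-binding protein, was highest, at 61.2 and 56.3 at early and 95.5 and 69.5 at mid anagen (0.47). NEMF, which marks stalled chains for removal, was next at 0.29.

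Of 16 further messenger RNAs listed for a terminal oligopyrimidine start, 12 were found and 11 tested, with a median of -0.65 and 0 called. FAU, which encodes a ribosomal protein fused to a ubiquitin-like domain, was lowest, at 1041 and 1305 at early and 645 and 400 at mid anagen (-1.20). CCNI was at 81.9 and 80.5 at early and 110 and 101 at mid anagen (0.37), and VIM, the intermediate filament of mesenchymal cells, at 20.6 and 78.5 at early and 187 and 298 at mid anagen (2.52). The high value of VIM stands beside the higher fibroblast marker sum of the mid libraries, and its part was not tested.

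The mTOR and MYC regulators had a median of 0.03 over 30 tested genes, with 9 below and 12 above without overlap and 0 called. Both counts lay near the 30.9% below and 31.5% above of all genes. RHEB, the GTPase that activates mTOR, was at 411 and 449 at early and 320 and 164 at mid anagen (-0.91), and MLST8, an mTOR subunit, at 30.9 and 34.9 at early and 21.9 and 22.6 at mid anagen (-0.54). MKNK2, a kinase of EIF4E, was at 252 and 133 at early and 375 and 291 at mid anagen (0.84), and SESN2, a leucine sensor that restrains mTOR, at 49.7 and 36.1 at early and 83.4 and 65.4 at mid anagen (0.79).

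The 77 mitochondrial ribosomal proteins, which serve a separate ribosome, had a median of -0.62, between those of the cytosolic ribosomal proteins and of the factors. Both mid values lay below both early values in 65 of them (84.4%) and above in 0, against 30.9% and 31.5% of all genes. limma called 0, with 47 (61.0%) lower and 0 higher at an unadjusted p under 0.05, against 14.7% and 13.2% of all genes. MRPL41 had the lowest fold change, at 164 and 202 at early and 67.8 and 55.9 at mid anagen (-1.55), followed by MRPL51 (-1.40). MRPL38 (0.03) and MRPS10 (0.03) had the highest. In the male pair the median was -0.94 and in the female pair -0.39.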

How the data were processed

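The authors deposited a signal per gene. From the named tools and the size of the values it was taken as a length-normalised abundance scaled between libraries, which no header states. kallisto 0.46.1 and sleuth 0.30.0 are named per the submitters' processing notes, while the build, the annotation and how transcripts were summed were not given in the sources used here. No counts are given, so depth is unknown and no counting interval is printed. Such values depend on the effective transcript length and on the scaling.

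From these, limma 3.58.1 (R 4.3.3) fitted phase alone to log2(value + 1), with the variance following the mean. The 12486 genes that reached 1 in 2 or more libraries entered the fit, and p-values were adjusted over all of them by the Benjamini-Hochberg method at 0.05. P-values measure the spread between these libraries. The fit was also run on simulated data with independent noise for each gene and library, with results not reported here. Deviations shared by the genes of a library were not simulated. Gene spans came from RefSeq ARS1.2, used for 20294 of 20326 identifiers. No coordinates are printed, since the files' build is not known, and no sequences were used here.

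Members and lists were chosen with earlier results of these data known. The naming rule took 57 members, namely the 3 most abundant, 3 lowest and 3 highest fold changes of each role and the paralog pairs, and of each other list the 2 lowest and 2 highest. Some genes it took are not reported here. Genes outside it, chosen for their role or after their values were seen, were RPLP2, RPL5, RPL11, RPL39, RPS29, EIF3A, EIF2S1, EIF2S3, EIF2B1, EIF2B2, EIF5B, EIF2AK2, EEF2K, RPS4X, RPL21 and TPT1. Alternatives were other pseudocounts, filters and scalings, no intensity trend, a span correction, each library left out and a replicate block.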

Additional observations from a re-analysis of the deposited data

Results flagged for a closer look

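For 7 members named by the rule, the female and the male pair differed in direction. Among all genes tested this held for 2933 of 12486, and among the tested factors for 13 of 59. The count of 7 among 57 named members was thus not above the share over all genes. With 1 library per sex and phase the difference between the pairs was not tested. EIF4EBP1 had a log2 fold change of 0.26 in the female and -0.75 in the male pair, a difference of -1.02. For EIF1B the values were 0.47 and -0.29 (difference -0.77), for EIF1 0.15 and -0.49 (-0.63), for EIF4A2 0.24 and -0.18 (-0.42) and for EIF4G2 0.14 and -0.06 (-0.20). The kinases went the other way, EIF2AK1 with -0.08 and 0.22 (0.30) and EIF2AK4 with -0.03 and 0.18 (0.21).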

How the results depend on the processing

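In each alternative run on the tested genes, all 77 ribosomal proteins kept a negative log2 fold change. Pseudocounts of 0.1 and 5 left 0 members called, against 0.144% and 0.344% of all genes. A filter of 5 and omission of the intensity trend also left 0, against 0.557% and 0.24% of all genes. Without a filter RPL3L was above 0. Rescaling to a common total gave 1 call among ribosomal proteins (RPL36AL) and 1 among factors (EEF1B2), against 5.46% of all genes, a ribosomal median of -0.73 and a factor median of 0.09, turned in direction. Rescaling to the total of genes that are not members gave a factor median of -0.01. The difference of -0.82 was the same under both scalings and -0.65 with the span trend removed. With the replicate number, which is the sex, as a replicate block, 7 ribosomal proteins and 6 factors were called, against 14.3% of all genes. Deviations of same-numbered libraries correlated at 0.29 over all tested genes and 0.06 over members, and nothing in the labels pairs them. Leaving out each library in turn gave 0 to 24 ribosomal and 0 to 1 factor calls, against 5.15% of all genes called without the mid female library, 2.68% without the mid male and 0 without either early library. The 24 came without the mid female library, where the spread rests on the early libraries alone and the lone mid library is assumed to vary like them. The ribosomal median ranged from -1.34 to -0.71, the factor median from -0.36 to -0.13 and the difference from -1.04 to -0.49. Values nearest 0 for the ribosomal median and the difference came without the mid male library, for the factor median without the early male library. The cause of these changes was not tested. In alternatives chosen after seeing the data, the factor median was -0.28 for initiation and elongation factors alone. The ribosomal median was -1.07 without members that have an unnamed copy. Each had 0 calls, against 0.304% of all genes.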

Other observations

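TPT1, a classic messenger RNA with a terminal oligopyrimidine start, was listed at 0.649 and 0.268 at early and 0.361 and 1.44 at mid anagen, the female value first, and was not tested. Of the 100 most abundant genes, ribosomal proteins held 50 and 52 at early and 49 and 38 at mid anagen. A gene described as eIF3 subunit C (LOC102182187), outside the naming pattern, was at 131 and 161 at early and 126 and 137 at mid anagen. A gene described as a putative 60S ribosomal protein L37a (LOC108636730) was at 322 and 337 at early and 286 and 349 at mid anagen, so its phases overlapped, unlike those of the tested ribosomal members.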
